A study of Mus musculus with 16 samples.

Results

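Gonadal white adipose tissue is the fat pad beside the epididymis of male mice. Of the 16 Affymetrix whole-transcript arrays of the study, the 8 whose titles say fed were described here, and no fasted array entered a fit. Per the labels, these samples came from pure-bred male C57BL/6 mice aged 3 to 4 months that were fed rather than fasted before tissue was taken in the morning, with 100 ng of total RNA labelled per sample. The labels give no genetic change, diet, hour or body weight, and they do not state whether the samples are 8 different mice, so the p-values below measure only the spread between these 8 samples, which may in part be technical. The members were all probe sets with 1 gene symbol, with the probe set of the highest mean signal kept per gene, which gave 22180 genes from 23521 probe sets. Each value is a log2 signal after RMA, a method that removes background, gives all arrays 1 distribution and condenses several probes into a single value.

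White fat stores triglyceride in single large droplets inside adipocytes and releases it as fatty acids when food is lacking. Adipocytes also secrete hormones, leptin among them, and in fed animals they build fatty acids from glucose under the control of insulin. The pad is a mixed tissue in which endothelium, fibroblast-like progenitors, macrophages and lymphocytes lie between the adipocytes and a mesothelial sheet covers the surface. Because each sample is bulk tissue, fewer cells of a type and less RNA per cell cannot be told apart in any value below.

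The 8 arrays correlated with each other between 0.974 and 0.993 over all genes, and no 2 arrays were identical. Fed replicate 2 stood apart, with a mean correlation of 0.977 with the others. Principal component 1 accounted for 36.0% of the variance. Fed replicate 2 scored 56.07 on it, and the other 7 arrays scored between -15.49 and 3.66. Fed replicate 3 stood apart on component 2, with 19.7% of the variance and a score of 37.35 against -21.24 for fed replicate 6 at the other end. Liver transcripts were high in fed replicates 2, 3 and 4 and ciliated epithelium transcripts in fed replicates 2 and 6, so results that rest on these arrays are given with and without them. Transcripts of the Y chromosome were present in every sample, with a mean of 7.74 ± 0.27 (SD, n = 8) for Eif2s3y and 6.57 ± 0.14 for Kdm5d. Xist, the transcript of the inactive X chromosome, lay at 2.31 ± 0.20.

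The most abundant signal in fed fat came from genes of the mature adipocyte and of the mitochondrial genome. Car3, a carbonic anhydrase that adipocytes make in large amounts, ranked first with a mean of 13.04 ± 0.07 (SD, n = 8). The hormone resistin (Retn) ranked 3 at 12.79 ± 0.10, and the fatty acid carrier Fabp4 ranked 9 at 12.52 ± 0.09. Cd36, which takes up fatty acids, lay at 12.37 ± 0.10, lipoprotein lipase (Lpl), which frees them from circulating triglyceride, at 12.36 ± 0.10, and the lipid droplet protein Cidec at 12.27 ± 0.10. Of the 10 protein-coding genes of the mitochondrial genome that were measured, 8 were among the 20 highest, led by the complex I subunit ND4 at 12.91 ± 0.06. The other members of the top 20 were the small nuclear RNA Rn7sk, the MHC class I light chain B2m, the translation factors Eif4a1 and Eef1a1, the actin-severing protein Gsn and the iron store Fth1.

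This order is one of array signal and not of transcript number, since probes differ in affinity and signal was not set per transcript length. Neighbours in it could not be separated in most cases, because 16 of the 19 gaps between successive genes in the top 20 were smaller than the larger SD of the pair. The top 20 as a set was steadier. All 20 stayed in it without fed replicates 2 and 3, and 19 or 20 stayed when any 1 array was left out. Taking the lowest instead of the highest probe set of each gene kept 16.

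Lists of genes with a known role separated clearly by signal. For the adipocyte identity list, 14 of 17 measured members lay in the upper 5% of all genes and the median member lay at percentile 99.5. Adiponectin (Adipoq), the most used adipocyte marker, was at 10.84 ± 0.10 and the droplet coat protein Plin1 at 10.64 ± 0.14. Fatty acid synthesis followed, with 12 of 19 members in the upper 5% and a median percentile of 98.4. Its highest member was the desaturase Scd1 at 12.23 ± 0.10, and fatty acid synthase (Fasn) lay at 11.74 ± 0.27. The extracellular matrix list had a median percentile of 96.5, led by decorin (Dcn) at 12.03 ± 0.09, and nuclear-encoded oxidative phosphorylation one of 94.3.

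Leptin (Lep), the satiety hormone that fat secretes in proportion to its stores, ranked 58 at 11.30 ± 0.39. Genes of brown fat were dim in the same tissue. The thermogenic list had a median percentile of 50.3 with 0 of 12 members in the upper 5%, and Ucp1, the uncoupling protein of brown fat, lay at 2.85 ± 0.12, which put it at percentile 30.7.

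Among the other cell types, endothelium had the highest list median, at percentile 91.7, with its adhesion protein Cdh5 at 10.44 ± 0.13. Fibroblasts and progenitors followed at 87.8 and macrophages at 85.8, where the complement gene C1qb reached 9.93 ± 0.16. Mesothelium lay at 77.5, led by the uroplakin Upk3b at 9.90 ± 0.30. Markers of T and NK cells were dimmer, with 5 of 14 above the median gene and a list median at percentile 43.9. The T cell receptor subunit Cd3e lay at 4.23 ± 0.21. Seminal vesicle, epididymal epithelium and germ cell lists were lowest, at percentiles 10.7, 17.2 and 24.0. The sperm tail gene Odf1 was the exception in the last list, at 10.73 ± 0.08 on all 8 arrays while the list median lay at 2.64.

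**Figure D1:**
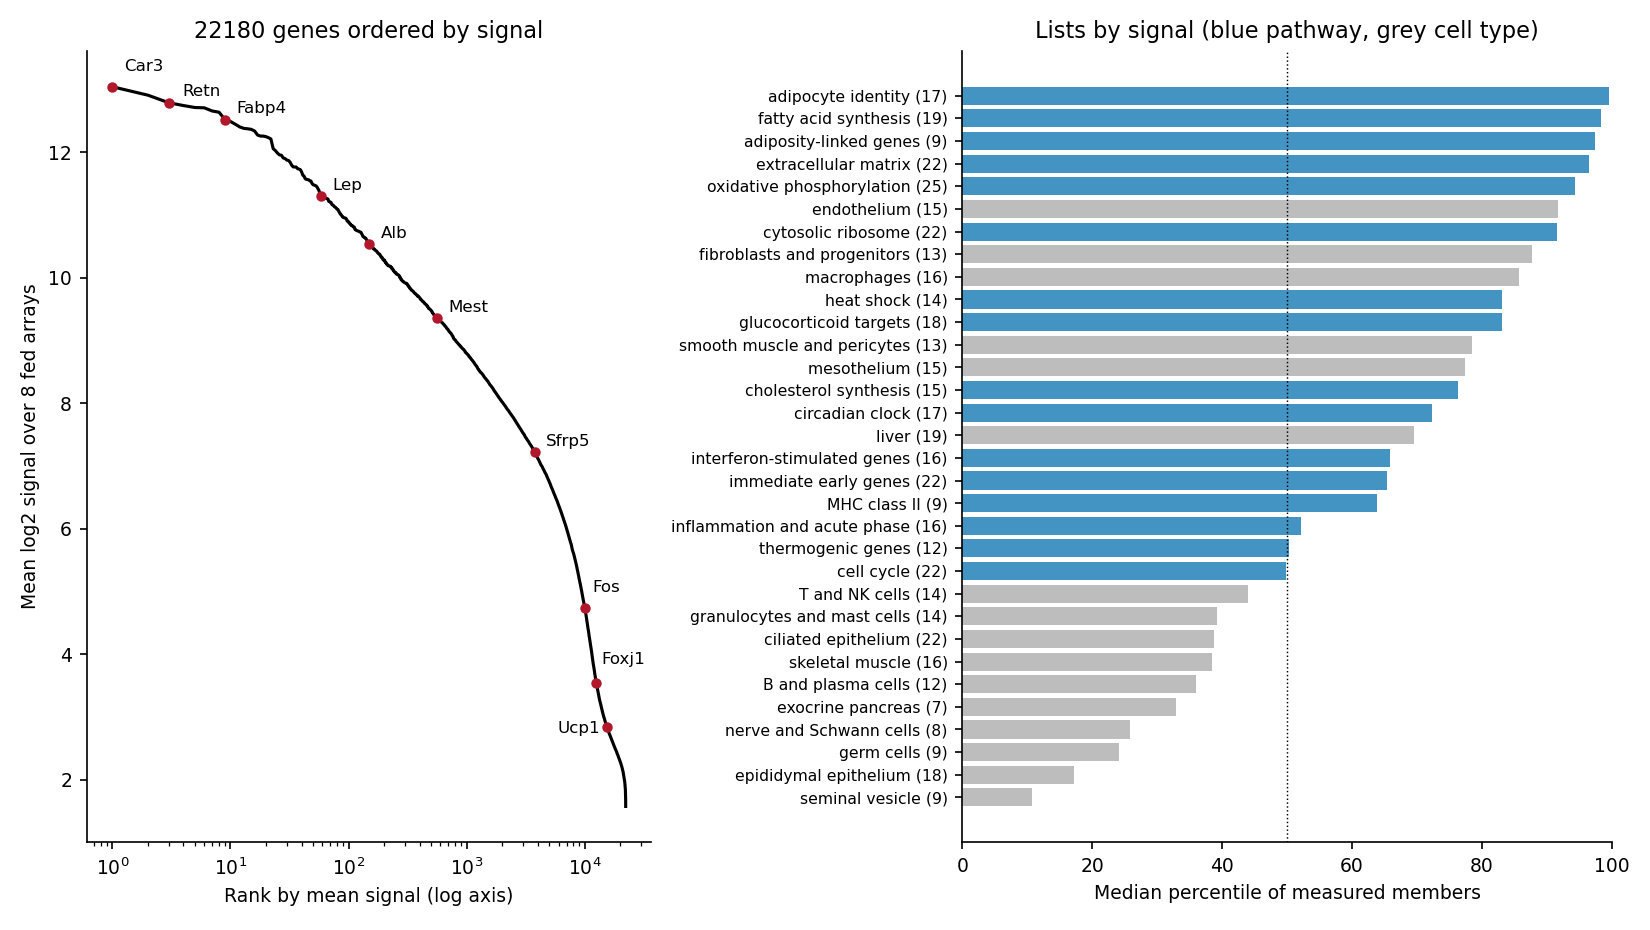
Left, mean log2 signal of 22180 genes over the 8 fed arrays against their rank on a log axis, with 10 genes marked. Right, the median percentile of the measured members of each list with at least 5 of them (number in brackets), where the dotted line marks percentile 50. Adipocyte identity reaches 99.5 and seminal vesicle 10.7.

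Most genes differed little between fed samples. The median SD over the 8 arrays was 0.19 on the log2 scale, and 90% of genes had an SD between 0.08 and 0.43. In 11.2% of genes the highest and lowest samples were at least 1 apart on the log2 scale, a 2-fold range. The spread depended on signal. Over 10 equal bins by mean signal, the median SD peaked at 0.26 in bin 5 and was 0.12 in the brightest bin. The 100 most abundant genes had a median SD of 0.10, and 0 of them were called in the test described next. Scd1 for example lay between 12.12 and 12.38 in all 8 samples. At the top of the range the spread is bounded by the normalisation, which gives all arrays 1 distribution: repeating it on the fed arrays took the SD of Car3 from 0.07 to 0.

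To ask which genes varied more than others of like signal, the variance of each gene over the 8 arrays was set against the distribution of variances fitted by limma along the mean signal. At a Benjamini-Hochberg adjusted p under 0.05, 102 of 22180 genes were called, which is 0.46%, and 1411 genes (6.36%) had an unadjusted p under 0.05. The call rests on how that distribution is fitted. Without the trend with signal 0 genes were called by limma and 1105 had an unadjusted p under 0.05, and without robust fitting 0 were called and 1086 had an unadjusted p under 0.05. The called genes are therefore best read as an ordered list of the most variable genes. In simulated data of 22180 genes the test called 5% of genes given 3 times their SD and 42% of those given 6 times. A gene that was not called may therefore still vary more than others of like signal. The called genes were sorted afterwards by their correlation with 3 marker genes, as a description. With r of at least 0.9, 46 followed albumin (Alb), 34 followed the axonemal dynein Dnah5, 3 made a set with Sfrp5, and 19 followed none of them. Each group counts its own marker gene.

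**Figure D2:**
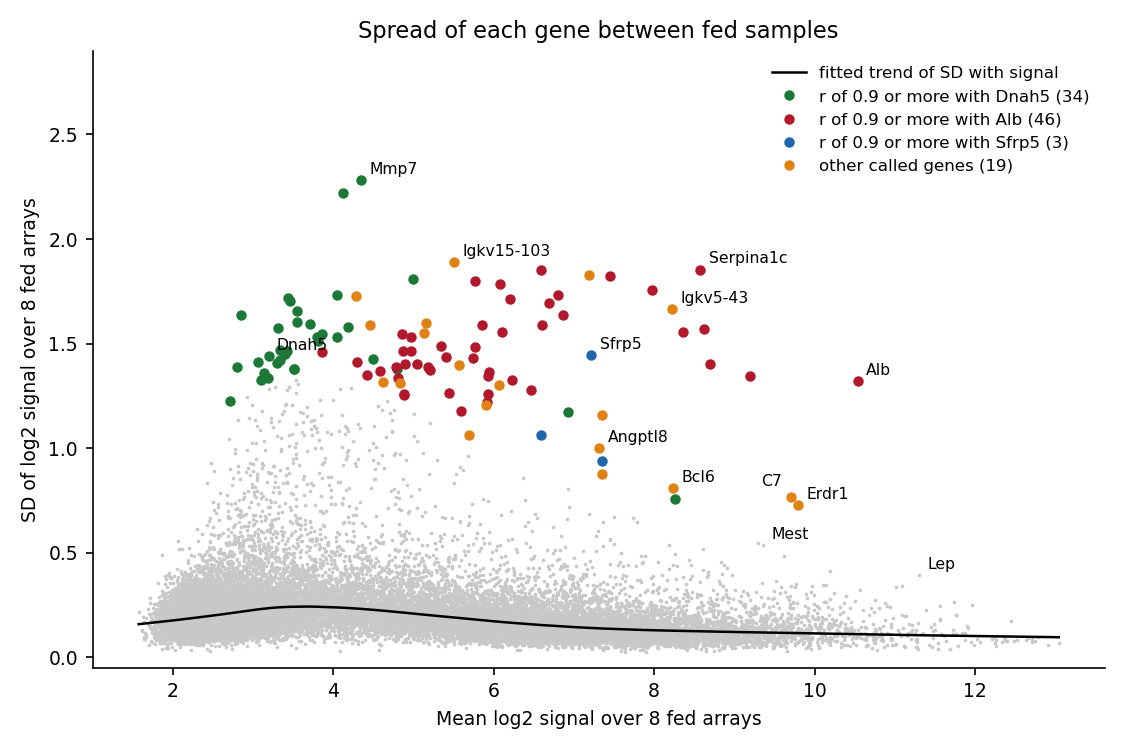
SD of each gene over the 8 fed arrays against its mean log2 signal. The line is the fitted trend of SD with signal, grey points are genes not called, and coloured points are the 102 called genes by the marker gene they follow, with the number of genes in brackets. Lep and Mest lie above the trend line and were not called.

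Liver transcripts made the largest group of variable genes. Alb, the main plasma protein made by hepatocytes, gave 9.25, 12.07, 11.93, 11.81, 9.18, 9.07, 11.06 and 9.94 in fed replicates 1 to 8, an 8.00-fold range in a fat pad where it ranked 149 of all genes. Fed replicates 2, 3 and 4 were high, fed replicate 7 was between, and the other 4 were low. Its SD of 1.32 exceeded the 0.11 fitted for genes of that signal (adjusted p 0.00705, limma variance test). In all 46 genes of this group the same 3 arrays were highest and fed replicate 7 came next. The group was picked by r of at least 0.9 with Alb over these arrays. A shared order is favoured by that choice and is not a separate result.

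The group held genes that are known as products of the liver. Serpina1c, a protease inhibitor of plasma, ranged from 6.33 over a median of 8.39 to 10.75. The broad inhibitor Pzp ranged from 4.36 over 6.18 to 8.81, and fetuin (Ahsg) from 5.69 over 7.70 to 10.11. The fibrinogen chain Fgg and transthyretin (Ttr), a carrier of thyroid hormone, showed the same order of arrays. Of the liver list, 14 of 19 measured members were called against 0.46% of all genes, and its mean ran from 5.14 in fed replicate 6 to 8.05 in fed replicate 3. Hepcidin (Hamp), the iron hormone of the liver, was called as well, but correlated with Alb at 0.88 and peaked in fed replicate 3 at 10.17.

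Elovl3, an elongase of very long fatty acids that was placed in the thermogenic list for its role in brown fat, moved with these liver genes. It lay at 2.95 in fed replicate 6 and at 6.25, 6.60 and 6.62 in fed replicates 2, 3 and 4, and its correlation with Alb over the 8 arrays was 0.98. It was the 1 called member of the thermogenic list. Uncoupling protein Ucp1 stayed between 2.65 and 3.02 on the same arrays. The part of liver RNA in these values was not tested.

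The promoter of Alb is shown because its window holds letters of the D-box, the element read by the clock-output factor Dbp and its relatives. RefSeq windows of assembly GRCm38.p6 cover 300 bases, most of them before a gene's start, and the Alb window lies at chr5:90460620-90460919 on the plus strand. Capitals mark the letters TTATGTAA, found at bases 28 to 35 on the gene's strand and at bases 47 to 54 on the opposite strand.
Alb: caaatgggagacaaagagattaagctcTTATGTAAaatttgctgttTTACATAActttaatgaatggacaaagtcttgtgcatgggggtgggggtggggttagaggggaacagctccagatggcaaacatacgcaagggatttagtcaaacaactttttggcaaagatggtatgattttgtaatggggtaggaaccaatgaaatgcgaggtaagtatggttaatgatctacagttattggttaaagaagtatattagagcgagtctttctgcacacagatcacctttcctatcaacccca
These letters, searched on both strands, occurred in 3 of 41 windows of the genes that followed Alb (those of Alb, Ces1c and Ugt2b1) and in 0.938% of all 32851 windows. Over the 8 arrays Alb and Dbp did not move together, with r of -0.01. A match describes the letters of the window and is not evidence of binding.

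The 2 genes with the largest SD, Mmp7 and Cuzd1, belonged to the group that followed Dnah5. Mmp7, a matrix protease of glandular epithelium, lay at 9.03 in fed replicate 2, at 6.78 in fed replicate 6 and between 2.85 and 3.31 in the other 6, a 72.6-fold range. Cuzd1 followed with 8.59 and 6.39 in the same samples and 2.56 to 4.24 elsewhere. Plet1 and Prom1, both surface proteins of epithelial and progenitor cells, reached 8.90 and 7.97 in fed replicate 2. In all 34 genes of this group fed replicate 2 was highest and fed replicate 6 came next. This order too is favoured by the choice of the group, which was picked by correlation with Dnah5 over the same arrays.

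Of these 34 genes, 2 are on the ciliated epithelium list, Dnah5 and Rsph4a, both parts of motile cilia, the beating hairs of duct and airway epithelium. Dnah5, an outer arm dynein, lay at 6.60 in fed replicate 2, at 3.72 in fed replicate 6 and at 2.42 to 2.62 in the rest (adjusted p 0.0402, limma variance test). Rsph4a, a radial spoke protein, reached 6.83 and 4.41 in the same 2 samples. Foxj1, the master regulator of motile cilia, lay at 5.77 in fed replicate 2 and at 3.92 in fed replicate 6, and was not called (adjusted p 0.152, limma variance test). On the ciliated epithelium list 2 of 22 members were called, and 16 had an unadjusted p under 0.05 against 6.36% of all genes. The list mean was 5.38 in fed replicate 2, 3.74 in fed replicate 6 and 3.11 to 3.19 in the other 6.

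Epididymal and germ cell markers were mostly absent from these arrays. The epididymal list mean was 2.83 in fed replicate 2 and 2.51 to 2.58 in the others, and its median member lay at 2.46. Adam7, a membrane protein of epididymal epithelium, was the member with the largest spread, with 6.16 in fed replicate 2, 4.04 in fed replicate 6 and an adjusted p of 0.0504 in the limma variance test. Of the germ cell list only Spata18 was called, at 7.27 in fed replicate 2. Lipocalin 2 (Lcn2), an iron-scavenging protein of inflamed and glandular epithelium, was called and followed Dnah5 with r of 0.95. The part of ductal tissue in these samples was not tested.

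Ccdc153, a coiled-coil protein of cilia chosen after its values were seen, is shown because its promoter window holds letters of the X-box, the element of the RFX factors that drive cilia genes. It lay at 7.90 in fed replicate 2 and 5.68 in fed replicate 6 against 3.88 to 4.46 in the others. The window is at chr9:44240427-44240726 of GRCm38.p6, on the plus strand, and capitals mark the X-box core GTTGCC at bases 99 to 104.
Ccdc153: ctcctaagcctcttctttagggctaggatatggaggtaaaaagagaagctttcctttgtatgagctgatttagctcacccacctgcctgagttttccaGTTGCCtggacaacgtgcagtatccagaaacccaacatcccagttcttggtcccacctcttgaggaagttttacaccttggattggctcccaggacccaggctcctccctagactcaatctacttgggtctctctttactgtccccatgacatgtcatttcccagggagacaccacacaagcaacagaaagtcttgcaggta
Searched on both strands, the core occurred in 6 of 33 windows of the genes that followed Dnah5, in 7 of 20 windows of the ciliated epithelium list, and in 12.5% of all windows.

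**Figure D3:**
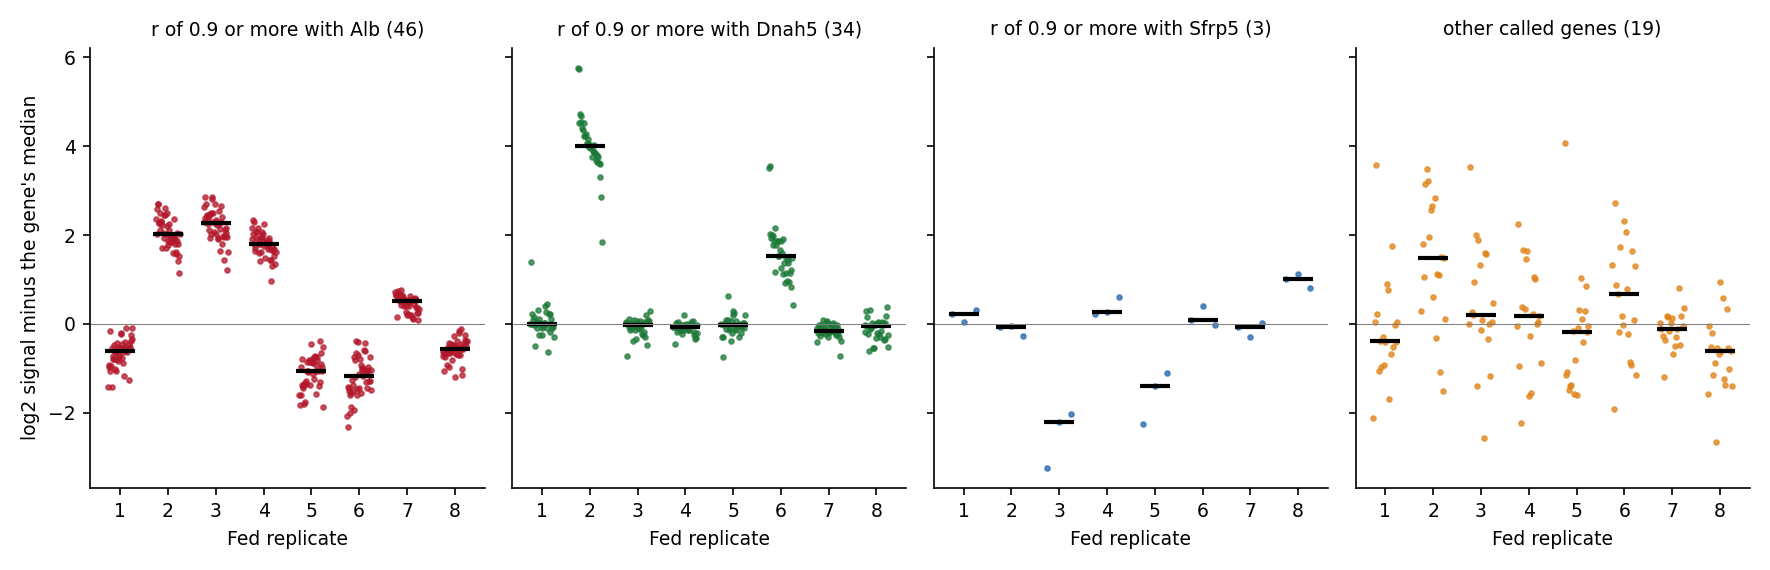
Log2 signal of each of the 102 called genes minus that gene's median over the 8 fed arrays, by fed replicate. Each point is a gene, the black bar is the median of the group, and panels are the genes with r of 0.9 or more with Alb, Dnah5 or Sfrp5 and the rest. The first group is high in fed replicates 2, 3 and 4, the second in fed replicates 2 and 6, and the third low in fed replicates 3 and 5.

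The arrays that carried these signals decided which genes were called. Without fed replicates 2 and 6, 82 genes were called, and they included 0 of the 34 genes that followed Dnah5 and all 46 that followed Alb. Without fed replicates 2, 3 and 4, 20 genes were called, among them 2 of the 34 and 5 of the 46. Sfrp5 was called in both cases. Both alternatives were chosen after the data had been seen. Without fed replicates 2 and 3, 47 genes were called, and with any 1 array left out the count lay between 68 (without fed replicate 4) and 100.

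The other 19 called genes missed the correlation of 0.9 with all 3 marker genes. In 8 of them fed replicate 2 was highest, in 5 the 3 highest were fed replicates 2, 3 and 4, and in 4 fed replicate 2 was followed by fed replicate 6. Cfi, Fbp1, Slc27a2 and Itih4, which the liver makes, correlated with Alb between 0.81 and 0.89. Among them were 5 immunoglobulin light chain segments. Igkv15-103 peaked at 9.34 in fed replicate 5 with a median of 5.26 and a lowest value of 3.14, a 73.6-fold range. Igkv5-43 peaked in fed replicate 2 at 11.46, with a median of 8.31 and a lowest value of 6.08. Igkv4-91 and Iglv1 were both highest in fed replicate 6. Of 13 measured Igkv segments 4 were called, beside 0.46% of all genes, and in 10 the samples ranged over at least 1 on the log2 scale, beside 11.2% of all genes. The median SD of the 13 was 0.58. Of 3 measured Ighv heavy chain segments 0 were called by limma, 1 ranged over at least 1 on the log2 scale, and their median SD was 0.28. Igh-VS107, a heavy chain segment not counted among them, was not called on all 8 arrays. It was called without fed replicates 2 and 6 (SD 1.27, adjusted p 0.0184, limma variance test). The joining chain Jchain lay between 3.98 and 5.88, the B cell receptor subunit Cd79a between 3.90 and 5.50, and the heavy chain Ighm between 10.30 and 11.35.

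Several called genes chosen here after their values were seen act in the adipocyte or its surroundings. Angptl8, an insulin-induced brake on lipoprotein lipase, ranged from 6.09 in fed replicate 2 over a median of 7.17 to 8.93 in fed replicate 1. The repressor Bcl6 ranged from 7.06 in fed replicate 2 over 8.56 to 9.40 in fed replicate 5. The complement component C7 was high in fed replicates 2 and 6, at 10.97 and 10.78, and lay between 8.86 and 9.66 in the others. The B cell chemokine Cxcl13 was high in the same 2 samples, at 8.37 and 7.60 against 4.85 to 6.43. All 4 genes had an adjusted p under 0.05 in the limma variance test, between 0.0254 and 0.0368. C7 and Cxcl13 thus shared their 2 highest samples with the cilia genes above, and the part of ductal tissue in them was not tested.

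Sfrp5, a secreted inhibitor of Wnt signalling whose transcript follows the expansion of fat pads, was the most variable of the genes tied to adiposity. It gave 7.96, 7.65, 4.49, 7.95, 5.48, 7.81, 7.65 and 8.75 in fed replicates 1 to 8, a 19.1-fold range. Fed replicates 3 and 5 were low, the other 6 lay between 7.65 and 8.75, and fed replicate 8 was highest. The SD was 1.45 against 0.14 fitted for its signal (adjusted p 0.00856, limma variance test). Mest, an imprinted gene of growing adipocytes, gave 9.85, 9.44, 8.31, 9.54, 8.84, 9.63, 9.39 and 9.88, with the same 2 samples lowest and fed replicate 8 highest. Leptin gave 11.46, 11.10, 10.45, 11.51, 11.22, 11.45, 11.46 and 11.75, where fed replicate 3 was lowest and fed replicate 8 highest. Neither Mest (adjusted p 0.101) nor Lep (adjusted p 0.185) was called in the limma variance test, and 5 of the 9 measured members of this list had an unadjusted p under 0.05 against 6.36% of all genes.

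These genes moved together across samples. Mest and Sfrp5 correlated at r = 0.98 (exact permutation p = 0.000149, 0.00387 adjusted over 26 gene pairs) with Spearman's rho of 0.95 (exact p = 0.00114, adjusted 0.0297). Without fed replicates 3 and 5, the 2 samples farthest from the median of Mest, r was 0.79 (exact p = 0.0139). Lep and Npr3, the clearance receptor for natriuretic peptides, correlated at r = 0.94 (exact p = 0.00384, adjusted 0.0200; rho 0.71, exact p = 0.0576), and at 0.77 (exact p = 0.143) without fed replicates 2 and 3. Lep and Mest gave r = 0.89 (exact p = 0.00764, adjusted 0.0248; rho 0.69, exact p = 0.0694) and 0.83 (exact p = 0.0806) without the same 2 samples. For Lep and Sfrp5 r was 0.88 (exact p = 0.00618, adjusted 0.0248; rho 0.86, exact p = 0.0107) and 0.92 (exact p = 0.0472) without them. The first pair kept an adjusted p under 0.05 with every single array left out, and the other 3 pairs lost it without fed replicate 3. The pairs of Lep with Mest and with Sfrp5 lost it without fed replicate 8 as well.

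A limma regression on Mest over all other genes called 10 of 22179, 8 that rose with it (0.0361%) and 2 that fell (0.00902%). Sfrp5 had the strongest association, with a slope of 2.63 ± 0.21 (SE, adjusted p 0.00602, limma). The others that rose were the matricellular protein Ccn5, the growth factor family member Fgf13, the heparan sulfate proteoglycan Gpc1, the small heat shock protein Hspb7, the receptor tyrosine kinase Ret, Prr32 and 1 gene with a clone name. Chrm3, a muscarinic acetylcholine receptor, fell with r of -0.97 and Zyg11a with r of -0.95. Leaving out fed replicate 3 or fed replicate 8 left 0 genes called by limma, and with robust fitting along a variance trend the count was 28, which held all 10. The regression called 5 genes without fed replicate 1, all among the 10, and 5 without fed replicate 5, of which 2 were among the 10. Without fed replicate 6 it called 1, which was among the 10. A regression on Lep called 0 genes by limma (2337 with an unadjusted p under 0.05), 3 without fed replicate 2, 5 without fed replicate 5, and 34 with robust fitting along a trend.

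Hspb7, one of the 3 called genes in the set with Sfrp5, had the same low samples, with 4.63 in fed replicate 3, 5.45 in fed replicate 5 and 7.97 in fed replicate 8. The set was picked by correlation with Sfrp5, which favours shared low samples. On the adiposity-linked list, all 8 other members correlated positively with Lep and 7 of them at 0.7 or more, beside 6.16% of all genes. Fed replicate 3 was lowest in Lep, and the list as a whole was not examined without it. The bone morphogenetic protein Bmp3 ranged from 5.58 in fed replicate 3 over a median of 7.13 to 7.70 in fed replicate 4. Fed replicate 3 was also one of the 3 arrays high in liver transcripts, and the part of liver RNA in these values was not tested.

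**Figure D4:**
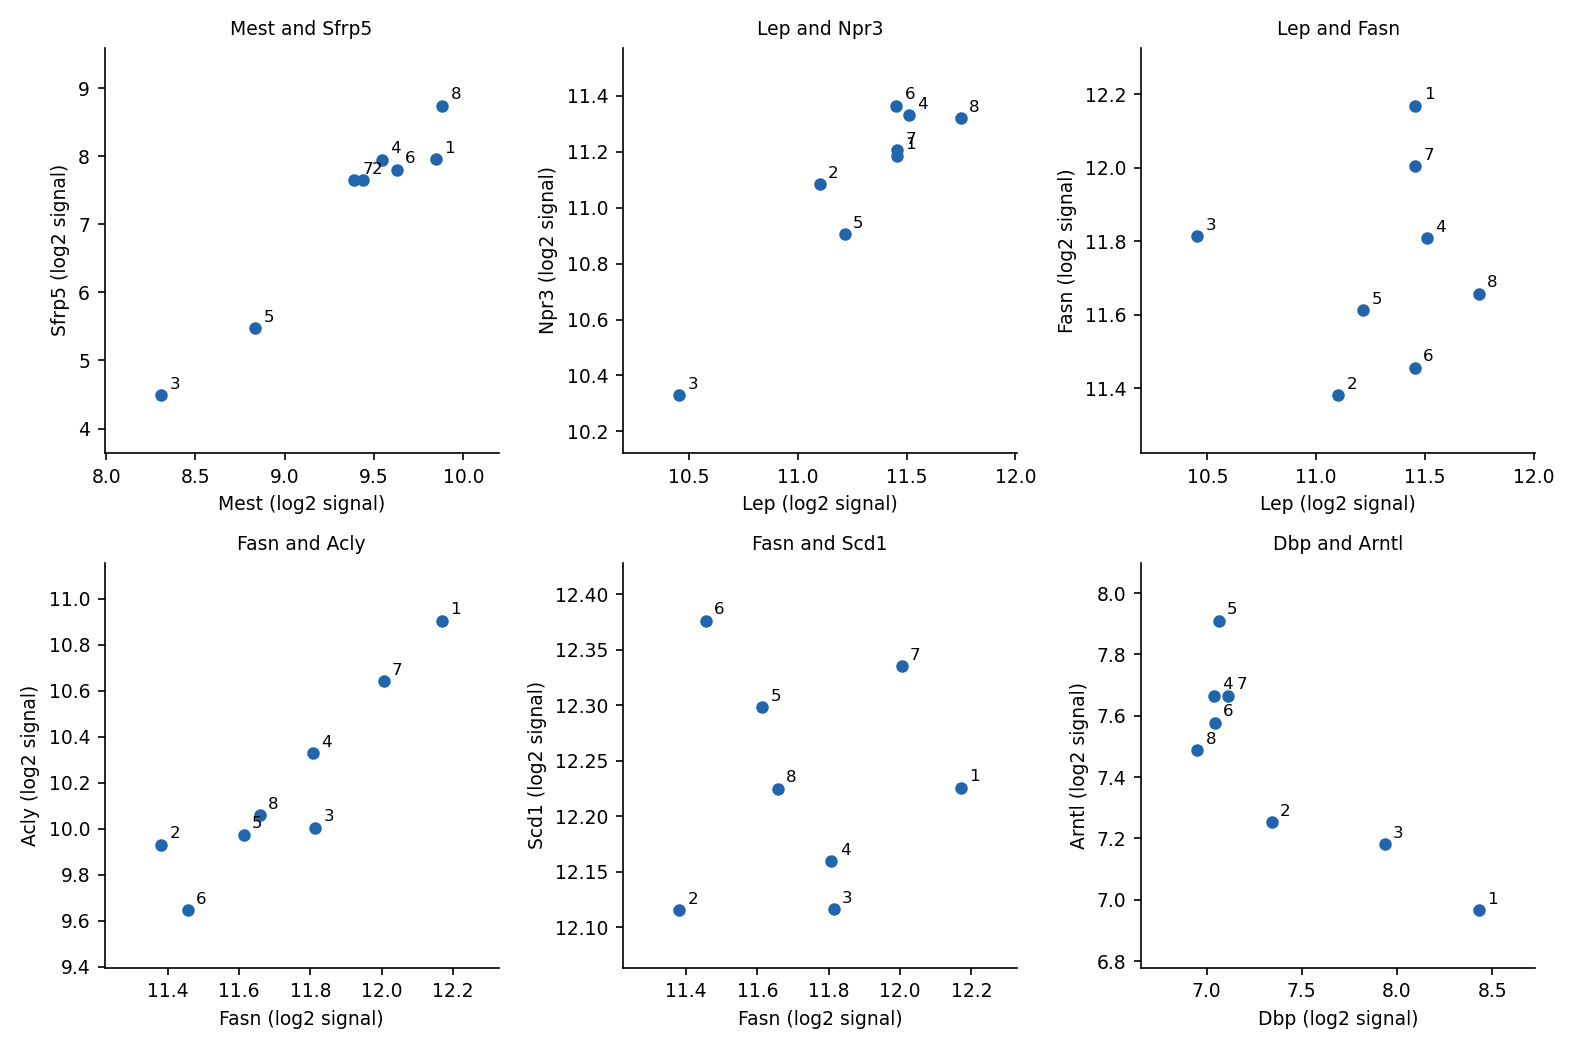
Log2 signal of 6 gene pairs in the 8 fed samples, numbered by fed replicate. Mest with Sfrp5 and Lep with Npr3 have fed replicate 3 at their low end. Fasn rises with Acly from fed replicates 2 and 6 to fed replicates 7 and 1. Fasn shows no clear relation with Scd1 (r = 0.02) or with Lep (r = 0.08).

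Several genes of fatty acid synthesis moved together across samples. Fasn gave 12.17, 11.38, 11.81, 11.81, 11.61, 11.46, 12.00 and 11.66 in fed replicates 1 to 8, a 1.73-fold range in which fed replicates 1 and 7 were highest and fed replicates 2 and 6 lowest. Acly, which makes the acetyl-CoA that Fasn uses, gave 10.91, 9.93, 10.01, 10.33, 9.97, 9.65, 10.64 and 10.06, with the same 2 samples highest. The pair correlated at r = 0.92 (exact permutation p = 0.00114, adjusted 0.0148) with rho of 0.90 (exact p = 0.00456, adjusted 0.0471), and at 0.93 (exact p = 0.0194) without fed replicates 1 and 2. It kept an adjusted p under 0.05 with each array left out in turn. Fed replicates 2 and 6, the lowest in Fasn, were also the 2 samples high in cilia genes. The part of ductal tissue in the values of Fasn and Acly was not tested.

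Other members followed to unequal degrees. Of 18 other members of the list, 16 correlated positively with Fasn and 9 at 0.7 or more, beside 4.26% of all genes. The acetyl-CoA carboxylase Acaca and the acetyl-CoA synthetase Acss2 reached r of 0.98 each. The lipogenic transcription factor Srebf1 gave r = 0.77 (exact p = 0.0285, adjusted 0.0535; rho 0.62, exact p = 0.115; 0.57 without fed replicates 1 and 2) and the lipase-like Pnpla3 gave 0.62 (exact p = 0.101, adjusted 0.155; rho 0.60, exact p = 0.132; 0.18 without them). Scd1 did not follow, with r = 0.02 (exact p = 0.957, adjusted 0.957; rho 0.12, exact p = 0.793; -0.34 without them), and the desaturase Fads2 went the other way at -0.56 with its highest value, 8.62, in fed replicate 2. None of the 19 members was called, and 13 had an unadjusted p under 0.05 in the limma variance test beside 6.36% of all genes. The regression on Fasn called 0 genes by limma (1666 with an unadjusted p under 0.05), and 3 with robust fitting along a trend, which were Acaca, Acss2 and the glycogen-targeting subunit Ppp1r3b. Angptl8 correlated with Fasn at 0.91. Fasn and Lep showed no clear relation, with r = 0.08 (exact p = 0.858, adjusted 0.892, rho 0.29 with exact p = 0.501), and 0.03 without fed replicates 2 and 3. With 1 array left out r ran from -0.03 to 0.38, and 8 samples cannot show that a relation is absent.

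Samples were all taken in the morning, and clock genes are described by sample. Dbp, a clock-output transcription factor, gave 8.43, 7.34, 7.93, 7.04, 7.06, 7.04, 7.11 and 6.95 in fed replicates 1 to 8. Fed replicates 1 and 3 were highest and 5 samples lay between 6.95 and 7.11. Arntl, the gene of the activator BMAL1, gave 6.97, 7.25, 7.18, 7.67, 7.91, 7.58, 7.67 and 7.49, so that fed replicates 1, 2 and 3 had the highest Dbp and the lowest Arntl. The pair correlated at r = -0.85 (exact permutation p = 0.00335, adjusted 0.0200; rho -0.64, exact p = 0.0962), and at -0.56 (exact p = 0.279) without fed replicates 1 and 3, so the relation rests on those samples. Leaving out fed replicate 1, 2 or 3 alone raised the adjusted p to 0.123, 0.0542 and 0.0716.

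Dbp and the repressor Nr1d1 gave r = 0.74 (exact p = 0.0181, adjusted 0.0391; rho 0.88, exact p = 0.00724) and 0.27 (exact p = 0.615) without the same 2 samples, and its adjusted p rose to 0.103 or more without fed replicate 1, 3, 4, 6 or 8. For the period gene Per3 r was 0.76 (exact p = 0.0321, adjusted 0.0557; rho 0.36, exact p = 0.389) and -0.13 (exact p = 0.740) without them. Clock itself lay between 9.45 and 9.64. Of 17 measured clock genes 0 were called and 4 had an unadjusted p under 0.05 in the limma variance test, beside 6.36% of all genes. A regression on Dbp called 0 genes by limma (1020 with an unadjusted p under 0.05), also with robust fitting along a trend and without any 1 array. The hour of each sample was not given, and its part was not tested.

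The Per3 promoter is shown as the window of the clock list that holds the D-box, to which Dbp binds. It lies at chr4:151044616-151044915 of GRCm38.p6 on the minus strand, printed on the gene's strand, and capitals mark TTATGTAA at bases 46 to 53 and 93 to 100.
Per3: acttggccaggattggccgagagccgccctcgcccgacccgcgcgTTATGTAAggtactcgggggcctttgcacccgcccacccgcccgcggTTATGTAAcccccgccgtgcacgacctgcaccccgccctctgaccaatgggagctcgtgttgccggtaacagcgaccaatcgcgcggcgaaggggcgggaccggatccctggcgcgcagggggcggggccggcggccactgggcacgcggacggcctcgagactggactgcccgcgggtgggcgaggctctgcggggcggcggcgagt
It was the only one of 21 windows of the clock list with these letters, while the E-box CACGTG, the element read by CLOCK and BMAL1, occurred in 6 of the 21 and in 7.15% of all windows.

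The smooth muscle list was highest in fed replicates 6 and 2, with list means of 7.16 and 7.06, and lowest in fed replicates 3 and 5, at 6.32 and 6.40. Its most variable member, calponin (Cnn1), ranged from 3.83 in fed replicate 5 over a median of 4.91 to 6.73 in fed replicate 2 and was not called (adjusted p 0.0787, limma variance test). Smooth muscle actin (Acta2) and its myosin Myh11 correlated at r = 0.79 (exact p = 0.0110, adjusted 0.0317; rho 0.88, exact p = 0.00724), and at 0.96 (exact p = 0.0125) without fed replicates 3 and 6. Its adjusted p was between 0.0577 and 0.150 without fed replicate 2, 4, 6 or 8. The endothelial genes Pecam1 and Cdh5 gave r = 0.86 (exact p = 0.00677, adjusted 0.0248; rho 0.83, exact p = 0.0154) and 0.58 (exact p = 0.225) without fed replicates 5 and 8, and the adjusted p was between 0.0572 and 0.105 without fed replicate 3, 5 or 8.

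Of the 14 members of the mesothelium list other than mesothelin (Msln), 12 correlated positively with it and 8 at 0.7 or more, beside 4.27% of all genes. The list was not examined without fed replicates 2 and 6. The keratins Krt18 and Krt8, which duct epithelium also makes, were highest in fed replicate 2 at 7.03 and 7.36, with 5.08 to 5.89 and 5.70 to 6.14 elsewhere. Msln was lowest in the 2 samples high in cilia genes, at 7.16 in fed replicate 2 and 7.33 in fed replicate 6, and Upk3b was lowest in fed replicate 2 at 9.33. Msln and Upk3b gave r = 0.81 (exact p = 0.0133, adjusted 0.0346; rho 0.60, exact p = 0.132) and 0.36 (exact p = 0.497) without fed replicates 2 and 6, so their relation rests on those samples. The adjusted p was between 0.0577 and 0.234 without fed replicate 1, 2, 4, 5, 6 or 7. Of the 15 mesothelial genes 0 were called by the limma variance test and 9 had an unadjusted p under 0.05, beside 0.46% and 6.36% of all genes.

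Of the matrix list, 19 of 22 members correlated positively with Lep and 9 at 0.7 or more, beside 6.16% of all genes, with a median r of 0.63. Fed replicate 3 was lowest both in Lep and in this list, and the list was not examined without it. The list means of smooth muscle, endothelium and macrophages were lowest there too, but not that of adipocyte identity. Col1a1 and Col3a1, chains of fibrillar collagen, correlated at r = 0.77 (exact p = 0.0288, adjusted 0.0535; rho 0.60, exact p = 0.132) and at 0.48 without fed replicates 3 and 6. The macrophage genes Adgre1 and C1qa correlated at 0.09 (exact p = 0.836, adjusted 0.892; rho 0.12, exact p = 0.793) and at -0.19 without fed replicates 2 and 8. For the lymphocyte genes Cd3e and Cd79a r was 0.19 (exact p = 0.610, adjusted 0.721; rho 0.48, exact p = 0.243), and -0.12 without fed replicates 1 and 3. The mean of the matrix list was lowest in fed replicate 3 at 8.88 and highest in fed replicate 6 at 9.49, and that of the macrophage list stayed between 7.52 and 7.73. The adhesive glycoprotein Thbs1 was the most variable matrix gene, from 8.62 in fed replicate 5 over 9.36 to 10.17 in fed replicate 4.

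Fos, the immediate early gene that handling of tissue and stimulation of cells induce quickly, lay between 4.32 in fed replicate 3 and 5.67 in fed replicate 6 with a median of 4.67. It correlated with Egr1 at r = 0.48 (exact p = 0.217, adjusted 0.283; rho 0.57, exact p = 0.151; 0.47 without fed replicates 3 and 6) and with Nr4a1 at 0.57 (exact p = 0.136, adjusted 0.186; rho 0.74, exact p = 0.0458; 0.92 without them). A regression on Fos called 0 genes by limma, with 928 at an unadjusted p under 0.05. The metallothioneins Mt1 and Mt2, which bind zinc, gave r = 0.59 (exact p = 0.120, adjusted 0.174; rho 0.52, exact p = 0.197) and 0.09 without fed replicates 5 and 7. Adipoq and Pparg, the master regulator of adipocytes, gave 0.60 (exact p = 0.0885, adjusted 0.144; rho 0.14, exact p = 0.752), which turned to -0.16 without fed replicate 2 and to -0.64 without fed replicates 2 and 3. For Ucp1 and Cidea r was 0.29 (exact p = 0.538, adjusted 0.667; rho 0.10, exact p = 0.840) and 0.48 without fed replicates 4 and 6. For the acute phase genes Saa3 and Lcn2 it was 0.18 (exact p = 0.681, adjusted 0.770; rho 0.19, exact p = 0.665) and 0.75 (exact p = 0.0889) without fed replicates 4 and 5.

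Alb with Apoa1 gave r = 0.96 (exact p = 0.0035, adjusted 0.0200, rho 0.81 with exact p = 0.0218), and 0.94 (exact p = 0.0181) without fed replicates 2 and 6. Its adjusted p stayed under 0.05 with every single array left out. Foxj1 with Dnah5 gave r = 0.99 (exact p = 0.0150, adjusted 0.0354, rho 0.57 with exact p = 0.151), and -0.60 (exact p = 0.1625) without the same 2 samples. That relation rests on those samples, and its adjusted p passed 0.05 without fed replicate 1, 2, 3, 4, 6 or 8. Apoa1, the main apolipoprotein of HDL, lay at 7.44 to 7.96 in the 3 samples high in Alb and at 4.85 to 6.58 in the other 5. Dnah5 and Foxj1 had their 2 highest values in fed replicates 2 and 6. A limma regression on Foxj1 called 681 genes, 639 that rose (2.88%) and 42 that fell (0.189%), led by Cited4, Dsp and Ckb. It called 0 without fed replicate 2 (1320 with an unadjusted p under 0.05), so those calls rest on 1 array.

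**Figure D5:**
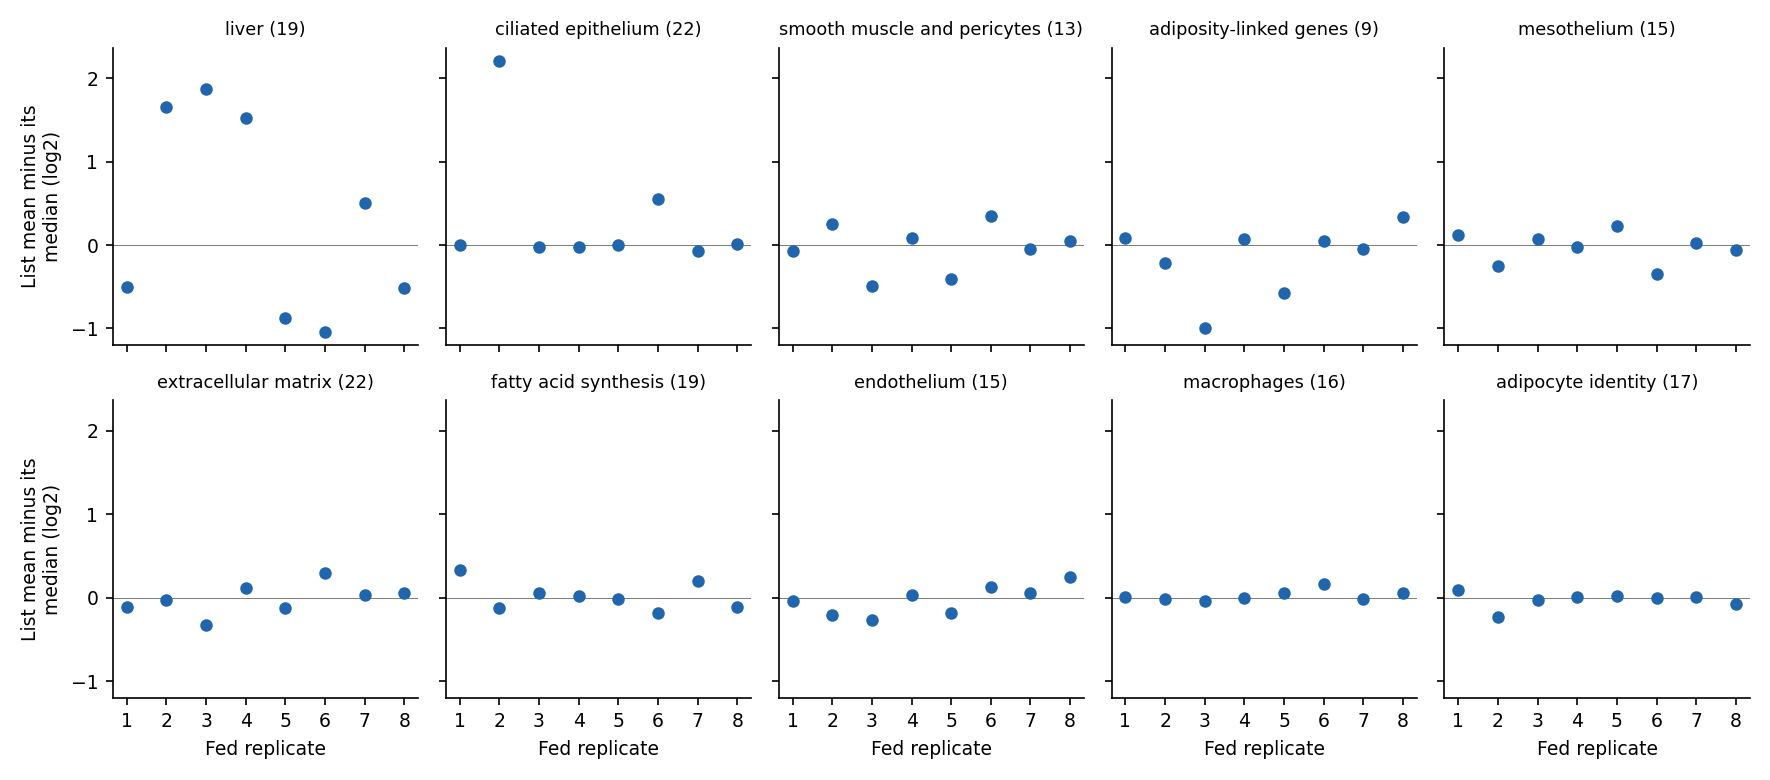
Mean log2 signal of 10 lists in each fed replicate, minus the median of the 8 list means, with the number of measured members in brackets and 1 scale for all panels. Liver and ciliated epithelium differ most between arrays, and adipocyte identity and macrophages least among the lists plotted.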

How the data were processed

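Total RNA of gonadal fat was hybridised to Affymetrix arrays. The authors deposited log2 values made with RMA, per the submitters' processing notes. The software that ran RMA is not given in the sources used here, nor is any filter. Arrays carry no read depth, so their number, 8 fed samples, limits the precision. The 8 arrays titled fed formed 1 group. Of 41345 probe sets, 1814 with several symbols and 16010 without one were not used.

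Variation was tested with limma 3.58.1 in R 4.3.3, as the variance of each gene with 7 residual degrees of freedom against a robust prior with a trend along mean signal. Covariation was tested by limma regression on 6 genes (Lep, Mest, Fasn, Dbp, Fos and Foxj1) and by exact permutation of 8 arrays for 26 measured gene pairs (scipy 1.17.1), all two-sided and Benjamini-Hochberg adjusted. Scripts were tested on simulated data. Genes were named from a rule, and not every gene that it covers is printed. It covers the 20 highest, the 20 called with the largest SD, and the highest and the 3 most variable members of each list. It also covers the 5 strongest called followers in each direction and the genes of the pairs. Genes outside it were chosen after their values were seen: Acaca, Acss2, Angptl8, Bcl6, C7, Ccdc153, Cfi, Cxcl13, Fbp1, Igh-VS107, Igkv4-91, Iglv1, Itih4, Plin1, Ppp1r3b, Prr32, Ret, Slc27a2, Ttr and Ugt2b1. The members and lists were chosen with earlier results of these data known. Alternatives covered the probe set kept, scaling, filters on dim genes, the prior, the threshold and arrays left out. Promoter windows are RefSeq's, of GRCm38.p6.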

Additional observations from a re-analysis of the deposited data

Results flagged for a closer look

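In 144 genes and list means examined, 26 had 1 array whose gap to its nearest neighbour exceeded Dixon's critical share of the range over 8 samples, a rule that by chance picks about 1 in 20. Fed replicate 2 was that array in 19 of the 26. The genes examined were drawn from those named here, and many were picked for their spread or covariation on these same arrays. The share flagged, and that of fed replicate 2, can therefore not be set against the rate by chance.

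Fed replicate 2 was highest in Adam7 (6.16), Ccdc153 (7.90), Cited4 (5.86), Ckb (9.43), Dnah5 (6.60), Dsp (6.78), Fads2 (8.62), Foxj1 (5.77), Krt18 (7.03), Krt8 (7.36), Prom1 (7.97), Rsph4a (6.83) and Spata18 (7.27). It was also highest in the list means of ciliated epithelium (5.38), epididymal epithelium (2.83) and B and plasma cells (4.45). It was lowest in Adipoq (10.61), Retn (12.58) and Eif2s3y (7.09).

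The other arrays stood apart in single genes or lists. B2m was highest in fed replicate 8 at 12.82 and Rn7sk lowest there at 12.52. Cd3e was highest in fed replicate 1 at 4.70, Cidea lowest in fed replicate 5 at 3.19, and Npr3 lowest in fed replicate 3 at 10.33. Fos was highest in fed replicate 6 at 5.67, and so was the macrophage list mean at 7.73.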

How the results depend on the processing

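No paired analysis was possible because only the fed group was described and no contrast between groups was made. The 102 variable genes became 173 with array medians subtracted, 66 with a filter at a linear value of 20 in 4 arrays, 21 at an adjusted p under 0.01, 0 without the trend and 0 without robust fitting. They became 47 without fed replicates 2 and 3 and 20 without fed replicates 2, 3 and 4, and leaving out 1 array gave 68 to 100. The share of the first component, 36.0%, moved to 21.3% with genes scaled to unit variance, 25.4% without fed replicates 2 and 3 and 28.4% without fed replicates 2, 3 and 4, and to between 30.5% and 43.2% with 1 array left out.

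Adjusting over the 6 regressions together gave 25 genes following Mest, 23 Lep, 6 Fasn, 3 Dbp, 4 Fos and 400 Foxj1. Adjusted singly, Mest had 10, Foxj1 681, and Lep, Fasn, Dbp and Fos 0 each. The joint adjustment takes in the small p-values of the Foxj1 regression, whose calls rest on fed replicate 2, and it was not repeated without that array. Robust fitting along a trend gave 28 for Mest, 34 for Lep and 3 for Fasn, and genes above the median signal 16, 20 and 3. With ranks Mest and Foxj1 had 0. Without fed replicates 2 and 3, or 2, 3 and 4, both had 0, and without fed replicates 2 and 6 Mest had 2 and Foxj1 0. With 1 array left out the counts ran from 0 to 13 for Mest, 0 to 5 for Lep and 0 to 708 for Foxj1. The filter on dim genes was not run for Foxj1, which it removes.

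Of 26 gene pairs, 12 passed by Pearson's r, 4 by Spearman's rho, 4 without fed replicates 2 and 3, and 5 to 11 with 1 array left out. With fed replicates 2 and 3 or any 1 array left out, the sign of r turned in 5 pairs, none of which had passed. Without its 2 farthest samples it also turned for Dbp with Per3, to -0.13, and for Foxj1 with Dnah5, which had passed, to -0.60. Adgre1 with C1qa gave -0.22 without fed replicate 2 and -0.04 without fed replicate 6, and with 1 array left out reached 0.49. Adipoq with Pparg gave -0.16 without fed replicate 2 and -0.64 without fed replicates 2 and 3, and at most 0.75 with 1 array left out. Cd3e with Cd79a gave -0.13 without fed replicate 1 and 0.90 without fed replicate 2. Fasn with Scd1 gave -0.32 without fed replicate 2, -0.18 without fed replicate 7 -0.37 without fed replicates 2 and 3, and 0.38 without fed replicate 6. Lep with Fasn gave -0.028 without fed replicate 1, -0.032 without fed replicate 2 and 0.38 without fed replicate 3. The cause of these changes was not tested.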
